A study of Homo sapiens with 12 samples.

Results

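Autophagy genes were followed in PC9 cells treated with erlotinib, with and without stable expression of pre-miR-371. The 41 genes were listed by name: 5 of the initiation kinase complex, 6 of the class III PI3-kinase complex, 6 that act on PI3P, lipid transfer or membrane supply, 10 conjugation enzymes, 4 of the ATG8 family, 7 cargo receptors and 3 regulators. All 41 were measured, among 19775 genes tested in all. Each gene was read from 1 probe set, the one with the highest mean over the 12 arrays among those assigned to that gene alone. The members had 103 such probe sets, and 13 members had 1 probe set each.

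Autophagy is the process by which a cell encloses part of its cytoplasm in a double membrane, the autophagosome, and delivers it to the lysosome for breakdown. The ULK1 kinase complex starts the process, the class III PI3-kinase marks the forming membrane with the lipid PI3P, and a chain of conjugation enzymes attaches proteins of the ATG8 family (LC3 and GABARAP) to it, where cargo receptors dock. The kinase mTORC1, which growth factor receptors such as EGFR activate, holds ULK1 in check, and transcription factors of the FOXO and MiT/TFE families are known to drive many genes of the pathway.

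PC9 is a human lung adenocarcinoma line that depends on mutant EGFR, and erlotinib inhibits the EGFR kinase. A stable PC9 line with a GFP vector served as control for a stable line that expressed the miR-371 precursor (pre-miR-371). They are named vector cells and pre-miR-371 cells. Each was treated with DMSO, the solvent control, or with 2 μM erlotinib for 24 h, which gave 4 groups of 3 Affymetrix HG-U133 Plus 2.0 arrays. There was a single stable line of each kind, so that an effect of the precursor and a difference between the lines themselves cannot be told apart. The labels do not say whether the arrays of a group came from separate cultures, so p-values measure the spread between these arrays. RNA of the whole culture was measured, in which a change in the mix of cells and a change within cells cannot be told apart.

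Array medians lay between 4.31 and 4.41 and upper quartiles between 6.72 and 6.92 on the log2 scale, and arrays of a group correlated at r of 0.996 to 0.997. The epithelial markers EPCAM, KRT8, KRT18, KRT19 and CDH1 had group means between 10.71 and 13.66. Of the lung lineage markers, NKX2-1 lay between 4.27 and 4.57, close to the array medians, SFTPB and NAPSA did not exceed 5.81, and SFTPC lay between 6.66 and 7.07. Fibroblast and leukocyte markers had group means of at most 4.89 except COL1A1, at 6.83 to 7.07. Among endothelial markers PECAM1 lay between 7.88 and 9.17, while VWF and CDH5 did not exceed 5.35.

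The precursor in the second line yields a pair of mature miRNAs, of which miR-371-3p was the subject of the study. Their RefSeq sequences on GRCh38.p14 lie on the plus strand, at chr19:53787716-53787738 for the 3p arm and chr19:53787680-53787699 for the 5p arm, and are shown with the seed (bases 2 to 8) in capitals because the line comparisons rest on this precursor.
hsa-miR-371a-3p: aAGUGCCGccaucuuuugagugu
hsa-miR-371a-5p: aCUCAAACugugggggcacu

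Promoter windows of the members, 250 bases before to 50 bases after a RefSeq start on GRCh38.p14, were searched on both strands for motifs of factors with a known link to the pathway or to EGFR signalling. These were CACGTG, the core of the element bound by MiT/TFE factors, its longer form TCACGTGA, which contains it, GTAAACA of FOXO factors and TGAGTCA of AP-1. RefSeq windows were at hand for 35 of the 41 members, 44 windows in all. CACGTG was in 3 of the 44 (6.82%, against 7.26% of all 35116 windows), TCACGTGA in 1 (2.27% against 0.98%), GTAAACA in 1 (2.27% against 3.42%) and TGAGTCA in 0 (against 4.95%). The 4 windows with a match are shown with CACGTG or GTAAACA in capitals, 5′ to 3′ on the strand of the gene. They are ATG14 (chr14:55411781-55412080, minus strand), ATG3 (chr3:112561913-112562212, minus strand), BNIP3 (chr10:131981874-131982173, minus strand) and CALCOCO2 (chr17:48830785-48831084, plus strand).
ATG14: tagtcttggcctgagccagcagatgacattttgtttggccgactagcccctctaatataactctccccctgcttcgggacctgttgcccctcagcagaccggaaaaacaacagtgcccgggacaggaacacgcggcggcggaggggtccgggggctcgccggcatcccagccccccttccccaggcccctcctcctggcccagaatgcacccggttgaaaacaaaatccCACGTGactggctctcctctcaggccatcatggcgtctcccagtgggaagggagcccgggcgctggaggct
ATG3: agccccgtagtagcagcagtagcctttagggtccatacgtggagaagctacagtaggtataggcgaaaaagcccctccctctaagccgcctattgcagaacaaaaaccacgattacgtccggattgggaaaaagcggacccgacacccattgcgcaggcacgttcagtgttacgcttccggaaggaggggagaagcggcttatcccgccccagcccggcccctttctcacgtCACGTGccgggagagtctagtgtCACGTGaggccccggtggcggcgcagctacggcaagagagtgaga
BNIP3: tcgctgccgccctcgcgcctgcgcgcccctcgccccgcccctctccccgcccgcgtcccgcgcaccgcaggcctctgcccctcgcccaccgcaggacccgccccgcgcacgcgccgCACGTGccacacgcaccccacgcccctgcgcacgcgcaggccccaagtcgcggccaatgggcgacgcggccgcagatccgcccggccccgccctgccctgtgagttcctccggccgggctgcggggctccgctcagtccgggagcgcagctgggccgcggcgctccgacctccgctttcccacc
CALCOCO2: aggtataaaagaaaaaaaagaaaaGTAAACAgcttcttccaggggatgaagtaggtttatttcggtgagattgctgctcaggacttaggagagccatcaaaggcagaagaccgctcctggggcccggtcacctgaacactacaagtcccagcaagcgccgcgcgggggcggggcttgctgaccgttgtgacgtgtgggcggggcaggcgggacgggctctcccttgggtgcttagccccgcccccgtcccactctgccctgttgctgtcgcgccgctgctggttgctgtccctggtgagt
With erlotinib, ATG14 and CALCOCO2 rose in both lines, while ATG3, with 2 CACGTG matches, and BNIP3 fell in both.

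The first question was how the autophagy genes responded to EGFR inhibition. In the GFP vector line 25 of the 41 members rose with erlotinib and 8 fell (limma, adjusted p under 0.05), where 26.5% of all genes rose and 23.4% fell. In the pre-miR-371 line 26 rose and 8 fell, where 24.8% of all genes rose and 22.2% fell. The background is higher for well expressed genes, which 37 of the 41 members were: of the genes whose log2 values averaged 6 or more, 38.4% rose and 39.9% fell in the GFP vector line, and 37.7% and 37.0% in the pre-miR-371 line. Of those 37 members, 23 rose and 8 fell in the former line and 24 rose and 8 fell in the latter. The members' median log2 fold change was 0.51 and 0.31 in the respective lines, where the median of all genes was 0.00 and -0.03.

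The calls named nearly the same genes in both lines. The 25 members that rose in the GFP vector line also rose in the pre-miR-371 line, and the 8 that fell were the same in both: ATG101, UVRAG, ATG3, ATG4B, ATG4D, ATG7, ATG16L1 and BNIP3. ATG4A, a protease that processes ATG8 proteins, passed the test in the pre-miR-371 line (0.22 ± 0.08, adjusted p = 0.0382) and had 0.15 ± 0.08 in the GFP vector line. The remaining 7 members, ULK2, AMBRA1, ATG2B, ATG5, ATG12, MAP1LC3B and TP53INP1, passed it in neither line. With a fold above 1.5 also required, 18 members rose and 4 fell in the GFP vector line (background 14.1% and 11.7%), and 15 rose and 2 fell in the pre-miR-371 line (background 12.6% and 9.33%). This background is of all genes, and that of well expressed genes was not counted with the fold limit.

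**Figure D1:**
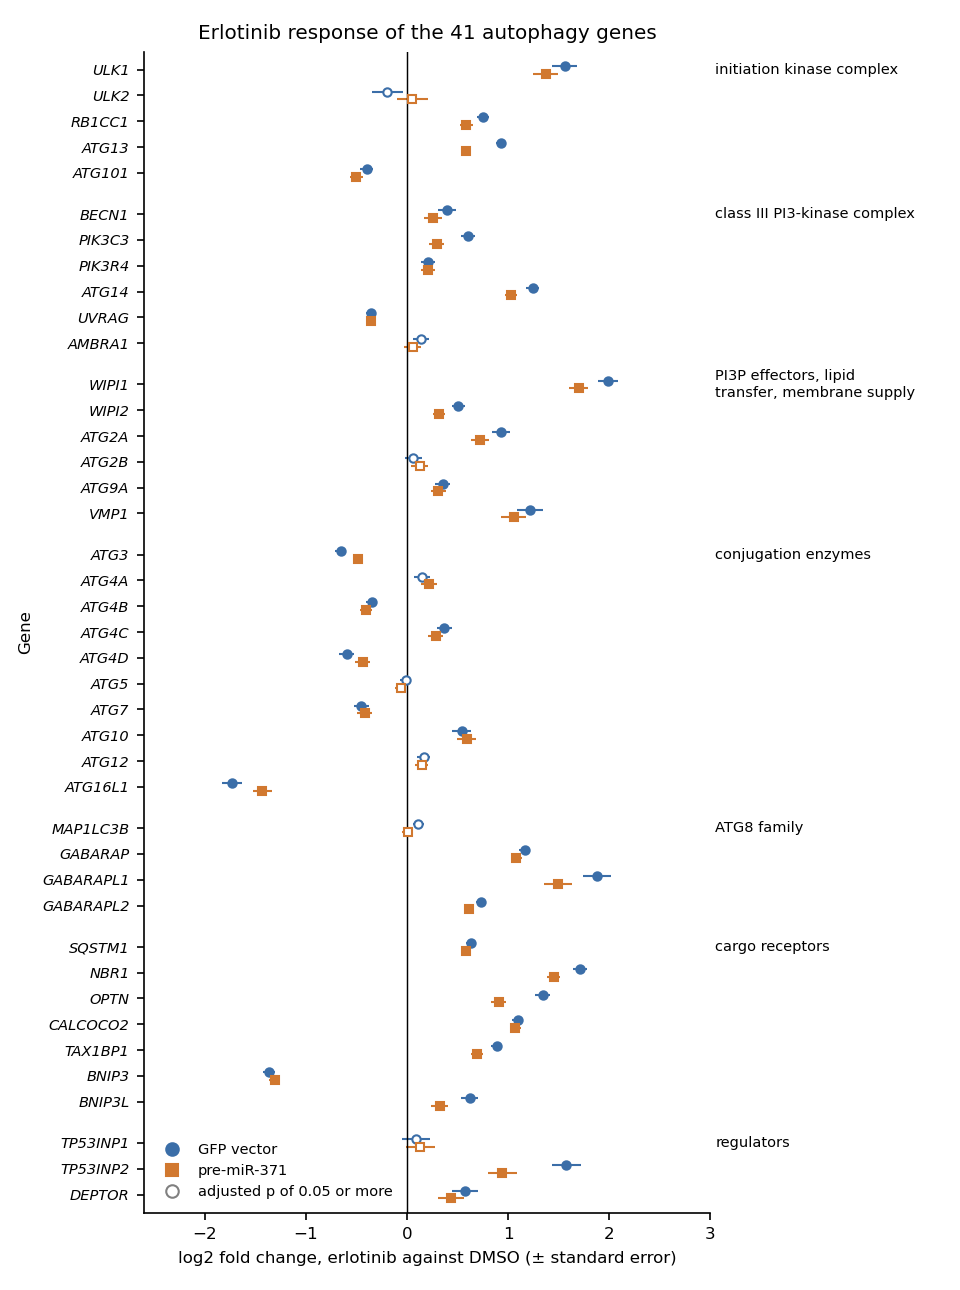
Log2 fold change of erlotinib against DMSO with its standard error for the 41 members, grouped by role, in the GFP vector line (blue circles) and the pre-miR-371 line (orange squares); open symbols mark an adjusted p of 0.05 or more. On the chosen probe sets WIPI1 has the highest values, 1.99 and 1.70, and ATG16L1 the lowest, -1.73 and -1.43.

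Cargo receptors rose in 6 of 7 cases in both lines, with a median log2 fold change of 0.89 in vector cells and 0.69 with pre-miR-371. Of the 5 genes of the initiation complex 3 rose and 1 fell in each line, with medians of 0.75 and 0.58. Among the 10 conjugation enzymes 5 fell in each line, 2 rose in vector cells and 3 with pre-miR-371, with medians of -0.18 and -0.23. The 5 that fell are 50% of these enzymes, against 23.4% and 22.2% of all genes in the respective lines and 39.9% and 37.0% of the well expressed ones. The class III PI3-kinase group had 4 higher and 1 lower of 6 in each line, the PI3P, lipid transfer and membrane group 5 higher and 0 lower of 6, the ATG8 family 3 higher and 0 lower of 4 and the regulators 2 higher and 0 lower of 3. The counts of rising genes stand beside 26.5% and 24.8% of all genes that rose in the respective lines. Among well expressed genes 38.4% and 37.7% rose. These roles hold few genes each, and the difference between roles was not tested.

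Among the initiation genes, ULK1, the kinase that starts autophagosome formation, moved most. It read 6.15, 6.13 and 6.10 in the GFP vector DMSO arrays and 7.58, 7.80 and 7.68 with erlotinib, and 6.37, 6.33 and 6.53 in the pre-miR-371 DMSO arrays and 8.08, 7.49 and 7.77 with erlotinib. All erlotinib arrays lay above all DMSO arrays in both lines. The log2 fold change was 1.56 ± 0.12 (2.95-fold, adjusted p = 2.76e-07) in vector cells and 1.37 ± 0.12 (2.59-fold, adjusted p = 1.13e-06) with pre-miR-371. RB1CC1, also called FIP200, is the scaffold of the complex and went from 9.06, 8.90 and 8.84 to 9.71, 9.70 and 9.64 in vector cells and from 9.09, 9.15 and 9.05 to 9.65, 9.69 and 9.70 with pre-miR-371. This was a rise of 0.75 ± 0.06 and 0.59 ± 0.06, again without overlap between treatments.

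ATG13 links ULK1 to that scaffold, and ATG101 stabilises ATG13. The ATG13 probe set read 8.13, 8.13 and 8.11 in DMSO and 9.04, 9.04 and 9.06 with erlotinib in the GFP vector line, and 8.11, 8.09 and 8.003 against 8.65, 8.70 and 8.62 in the pre-miR-371 line. It rose in both lines, by 0.93 ± 0.05 and 0.58 ± 0.05, and its erlotinib arrays of the pre-miR-371 line lay below those of the GFP vector line. ATG101 went the other way, from 9.10, 9.11 and 9.09 to 8.73, 8.71 and 8.65 in vector cells and from 9.02, 9.02 and 8.97 to 8.64, 8.47 and 8.41 with pre-miR-371. It fell by 0.40 on the log2 scale (SE 0.06) and by 0.50 (SE 0.06). ULK2, the paralogue of ULK1, had group means of 3.29 to 3.55, near the low end of the array, and changes of -0.19 ± 0.15 and 0.05 ± 0.15 that did not pass the test.

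In the class III PI3-kinase group the targeting subunit ATG14, which directs the complex to the site of autophagosome formation, led. Its values were 7.51, 7.50 and 7.33 in DMSO and 8.75, 8.65 and 8.67 with erlotinib in the GFP vector line, and 7.47, 7.54 and 7.48 against 8.47, 8.56 and 8.56 in the pre-miR-371 line. Treated and untreated arrays were well apart, with rises of 1.24 ± 0.06 (2.36-fold, adjusted p = 6.07e-09) and 1.03 ± 0.06 (2.04-fold, adjusted p = 4.24e-08). UVRAG, which takes the place of ATG14 in a complex that serves endosomes, fell from 7.22, 7.18 and 7.13 to 6.85, 6.84 and 6.77 in vector cells and from 7.08, 7.04 and 7.08 to 6.72, 6.74 and 6.68 with pre-miR-371. The fall was 0.36 in each line with an SE of 0.05, so the alternative partners of 1 core complex moved in opposite directions.

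The core subunits moved less. PIK3C3, the lipid kinase itself, read 7.80, 7.78 and 7.62 in DMSO and 8.31, 8.39 and 8.32 with erlotinib in the GFP vector line, and 7.73, 7.87 and 7.75 against 8.13, 8.15 and 7.95 in the pre-miR-371 line. The erlotinib arrays were higher in each line without overlap, by 0.60 ± 0.07 and 0.29 ± 0.07. BECN1, the regulatory subunit, rose by 0.39 ± 0.09 and 0.26 ± 0.09, and PIK3R4, the regulatory scaffold, by 0.21 ± 0.07 in both. AMBRA1, which ties BECN1 to the ULK1 complex, had 0.14 ± 0.08 and 0.05 ± 0.08 and did not pass.

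WIPI1, a protein that binds PI3P on the forming membrane, had the largest response of the 41 members in both lines on the chosen probe sets, although other probe sets of GABARAPL1 and TP53INP1 rose more. It read 5.96, 5.55 and 5.66 in DMSO and 7.62, 7.68 and 7.83 with erlotinib in the GFP vector line, and 6.09, 6.15 and 6.04 against 7.77, 7.76 and 7.83 in the pre-miR-371 line. The treated arrays of the lines overlapped, while the GFP vector DMSO arrays lay below those of the pre-miR-371 line. The rise was 1.99 ± 0.09 (3.96-fold, adjusted p = 3.62e-09) and 1.70 ± 0.09 (3.24-fold, adjusted p = 1.94e-08). Its relative WIPI2, which recruits the ATG16L1 complex, rose by 0.51 ± 0.06 and 0.32 ± 0.06.

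VMP1, a scramblase of the endoplasmic reticulum needed for autophagosome formation, read 5.92, 6.11 and 5.90 in DMSO and 7.15, 7.25 and 7.18 with erlotinib in the GFP vector line, and 5.86, 5.86 and 5.90 against 6.56, 7.16 and 7.07 in the pre-miR-371 line. All treated arrays were higher, although the first pre-miR-371 array stood below the other two. The changes were 1.22 ± 0.13 (adjusted p = 3.62e-06) and 1.05 ± 0.13 (adjusted p = 1.58e-05). ATG2A, which carries lipids to the growing membrane, went from 8.47, 8.52 and 8.33 to 9.44, 9.41 and 9.27 in vector cells and from 8.55, 8.46 and 8.30 to 9.25, 9.22 and 9.01 with pre-miR-371. It rose by 0.93 ± 0.09 and 0.73 ± 0.09, whereas its paralogue ATG2B had 0.06 ± 0.08 and 0.13 ± 0.08 on the chosen probe set. Of the 4 probe sets of ATG2B, 1 was called higher in each line. Their changes ran from 0.06 to 0.38 in vector cells and from -0.15 to 0.42 with pre-miR-371. ATG9A, the membrane protein of the vesicles that seed the autophagosome, rose by 0.35 ± 0.07 and 0.31 ± 0.07.

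The conjugation enzymes held 5 of the 8 falls in each line, where 39.9% and 37.0% of well expressed genes fell. ATG16L1, which joins ATG12 and ATG5 and places the ATG8 proteins on the membrane, read 8.57, 8.39 and 8.23 in DMSO and 6.70, 6.63 and 6.67 with erlotinib in the GFP vector line. In the pre-miR-371 line it read 7.95, 7.97 and 7.87 against 6.71, 6.41 and 6.38. The treated arrays of both lines reached about the same level from different starting points. The log2 fold change was -1.73 ± 0.10 (3.31-fold lower, adjusted p = 1.4e-08) and -1.43 ± 0.10 (2.69-fold lower, adjusted p = 1.03e-07), the largest falls among the members in both lines.

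ATG3, the enzyme that transfers ATG8 proteins to lipid, fell from 10.85, 10.80 and 10.82 to 10.17, 10.23 and 10.11 in vector cells and from 10.70, 10.79 and 10.77 to 10.24, 10.28 and 10.28 with pre-miR-371. ATG7, which activates both conjugation systems upstream of it, fell from 7.69, 7.60 and 7.51 to 7.12, 7.17 and 7.15 and from 7.51, 7.43 and 7.27 to 6.99, 7.07 and 6.89. The log2 fold changes were -0.66 ± 0.05 and -0.49 ± 0.05 for ATG3, and -0.45 ± 0.08 and -0.42 ± 0.08 for ATG7. Neither gene's arrays overlapped between treatments in either line.

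The 4 proteases of the ATG4 family, which trim ATG8 proteins before conjugation and free them afterwards, split. ATG4D read 6.76, 6.60 and 6.82 against 6.14, 6.11 and 6.13 in vector cells and 6.45, 6.54 and 6.31 against 5.98, 6.05 and 5.96 with pre-miR-371, a log2 fold change of -0.60 ± 0.07 and -0.44 ± 0.07. ATG4B changed by -0.35 ± 0.06 and -0.41 ± 0.06, and ATG4C by 0.37 ± 0.08 and 0.28 ± 0.08. ATG10, the enzyme that hands ATG12 to ATG5, was the only other conjugation enzyme to rise in both lines, from 6.92, 6.55 and 6.62 to 7.30, 7.20 and 7.23 and from 6.30, 6.23 and 6.27 to 6.92, 6.94 and 6.71. Its rise was 0.54 ± 0.09 and 0.59 ± 0.09, and on the chosen probe set its pre-miR-371 arrays lay below the GFP vector arrays in DMSO and in erlotinib. ATG5 and ATG12, the conjugated pair itself, had changes of -0.01 ± 0.05 and -0.06 ± 0.05, and 0.16 ± 0.06 and 0.14 ± 0.06, which did not pass.

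The GABARAP branch of the ATG8 family rose as a whole. GABARAPL1 read 6.29, 6.09 and 5.60 in DMSO and 8.02, 7.78 and 7.82 with erlotinib in the GFP vector line, and 6.39, 6.30 and 6.33 against 7.90, 7.78 and 7.83 in the pre-miR-371 line. The treated arrays agreed closely between lines, and the widest spread was in GFP vector DMSO. Its rise was 1.88 ± 0.14 (3.68-fold, adjusted p = 1.67e-07) and 1.497 ± 0.139 (2.82-fold, adjusted p = 1.64e-06), second to WIPI1 in both lines on the chosen probe sets. Its other probe set, 208869_s_at, rose by 2.27 ± 0.12 and 2.29 ± 0.12 (limma over all probe sets, adjusted p = 5.3e-09 and 7.05e-09), more than either probe set of WIPI1. GABARAP went from 11.10, 11.19 and 11.19 to 12.30, 12.35 and 12.33 and from 11.21, 11.17 and 11.13 to 12.32, 12.24 and 12.19, which was 1.16 ± 0.06 and 1.08 ± 0.06.

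GABARAPL2, the third GABARAP gene, read 10.57, 10.55 and 10.53 against 11.29, 11.30 and 11.25 in vector cells and 10.57, 10.59 and 10.60 against 11.20, 11.21 and 11.19 with pre-miR-371. It rose by 0.73 ± 0.05 and 0.61 ± 0.05. MAP1LC3B, the LC3 protein used most as a marker of autophagosomes, read 8.81, 8.82 and 8.76 against 8.93, 8.93 and 8.87, and 8.97, 8.98 and 8.99 against 8.94, 9.05 and 8.97. The GFP vector arrays did not overlap between treatments, but the difference of 0.11 ± 0.05 did not pass (adjusted p = 0.095), and that of 0.01 ± 0.05 in the pre-miR-371 line was smaller than the spread between its arrays.

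Cargo receptors bind ubiquitin or an organelle on one side and ATG8 proteins on the other. NBR1, a receptor for ubiquitinated proteins, read 8.76, 8.63 and 8.63 in DMSO and 10.47, 10.41 and 10.27 with erlotinib in the GFP vector line, and 8.77, 8.78 and 8.68 against 10.18, 10.25 and 10.15 in the pre-miR-371 line. All treated arrays lay more than 1 log2 unit above all DMSO arrays. The rise was 1.71 ± 0.07 (3.28-fold, adjusted p = 6.88e-10) and 1.45 ± 0.07 (2.73-fold, adjusted p = 3.75e-09). OPTN, a receptor in the removal of mitochondria and bacteria, went from 6.95, 6.73 and 6.79 to 8.15, 8.24 and 8.10 and from 7.24, 7.02 and 7.02 to 7.97, 8.03 and 7.99. This was 1.34 ± 0.08 (2.53-fold, adjusted p = 1.92e-08) and 0.91 ± 0.08 (1.87-fold, adjusted p = 8.47e-07).

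SQSTM1, also called p62, is the best known receptor and is itself degraded by autophagy. It read 9.68, 9.60 and 9.61 in DMSO and 10.30, 10.26 and 10.23 with erlotinib in the GFP vector line, and 9.47, 9.48 and 9.50 against 10.03, 10.11 and 10.07 in the pre-miR-371 line. On the chosen probe set, which rose most of its 5, the mRNA rose by 0.64 ± 0.05 and 0.58 ± 0.05. There the pre-miR-371 arrays lay below the GFP vector arrays under both treatments. CALCOCO2 (NDP52), which binds bacteria and damaged mitochondria, rose by 1.09 ± 0.05 and 1.07 ± 0.05, and TAX1BP1, which clears protein aggregates, by 0.89 ± 0.06 and 0.69 ± 0.06.

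The mitochondrial receptors BNIP3 and BNIP3L moved in opposite directions. BNIP3 read 9.54, 9.44 and 9.46 in DMSO and 8.19, 8.08 and 8.08 with erlotinib in the GFP vector line, and 9.61, 9.74 and 9.68 against 8.41, 8.35 and 8.34 in the pre-miR-371 line. It was the only cargo receptor to fall, with a log2 fold change of -1.37 ± 0.06 (2.58-fold lower, adjusted p = 1.45e-09) and -1.31 ± 0.06 (2.48-fold lower, adjusted p = 2.79e-09). BNIP3L, also called NIX, rose by 0.62 ± 0.08 and 0.32 ± 0.08.

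**Figure D2:**
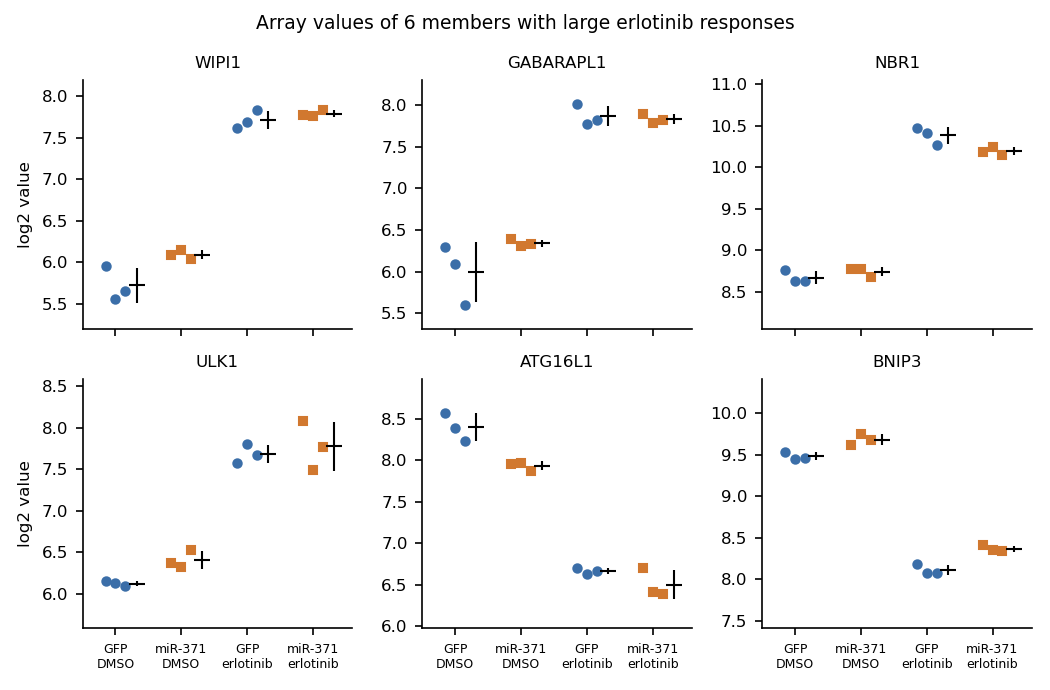
Log2 values of 6 members on each of the 12 arrays, with the mean and SD of each group of 3 as a cross; blue circles are the GFP vector line and orange squares the pre-miR-371 line, and each panel has its own vertical range. WIPI1, GABARAPL1, NBR1 and ULK1 lie higher on all erlotinib arrays than on all DMSO arrays, and ATG16L1 and BNIP3 lie lower.

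Of the regulators, TP53INP2, which leaves the nucleus to assist autophagosome formation, read 4.75, 4.11 and 4.40 in DMSO and 6.03, 5.94 and 6.02 with erlotinib in the GFP vector line, and 4.42, 4.68 and 4.76 against 5.69, 5.41 and 5.59 in the pre-miR-371 line. It was low in DMSO and rose without overlap, by 1.58 ± 0.14 (2.98-fold, adjusted p = 1.06e-06) and 0.94 ± 0.14 (1.92-fold, adjusted p = 0.000119). DEPTOR, an inhibitor bound to mTOR, read 4.75, 4.42 and 4.78 against 5.15, 5.43 and 5.09, and 4.98, 4.89 and 4.97 against 5.50, 5.52 and 5.13. On the chosen probe set it rose by 0.57 ± 0.13 and 0.44 ± 0.13 (adjusted p = 0.00209 and 0.0128), and its treated arrays lay above the DMSO arrays in both lines. DEPTOR was low there, with group means of 4.65 to 5.38. Its other probe set had changes of 0.05 in each line and was not called.

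TP53INP1, a target of p53 that also binds ATG8 proteins, depended on the probe set that was read. The probe set with the highest mean, 244721_at, read 4.57, 4.93 and 5.21 in DMSO and 4.90, 5.11 and 4.96 with erlotinib in the GFP vector line, and 5.29, 5.36 and 5.06 against 5.29, 5.29 and 5.53 in the pre-miR-371 line. Its arrays overlapped between treatments in both lines. Probe set 225912_at, with nearly the same mean over all arrays (5.117 against 5.124), read 3.01, 2.97 and 2.78 in DMSO and 7.49, 7.57 and 7.47 with erlotinib in the GFP vector line, and 3.35, 2.97 and 2.78 against 6.94, 7.01 and 7.07 in the pre-miR-371 line. That was a rise of 4.59 ± 0.12 (limma over all probe sets, adjusted p = 1.37e-11) and 3.97 ± 0.12 (adjusted p = 6.82e-11), larger than that of any member as chosen. The third probe set had changes of 0.06 ± 0.14 and -0.00 ± 0.14, so that whether TP53INP1 passed depended on which probe set was read.

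Other members also had probe sets that disagreed. For MAP1LC3B, 208786_s_at read 8.41, 8.32 and 8.37 in DMSO and 9.10, 9.17 and 8.98 with erlotinib in the GFP vector line, and 8.35, 8.40 and 8.40 against 8.97, 8.92 and 9.01 in the pre-miR-371 line. It rose by 0.72 ± 0.07 (limma over all probe sets, adjusted p = 1.07e-06) and 0.58 ± 0.07 (adjusted p = 9.98e-06), while the chosen probe set did not pass. ATG13 was the reverse case. Its chosen probe set, 203364_s_at, rose, while 209021_x_at read 7.93, 7.97 and 7.81 against 8.01, 7.91 and 7.80 in vector cells and 7.83, 7.86 and 7.95 against 7.95, 8.03 and 7.94 with pre-miR-371. The differences of that probe set were 0.00 ± 0.07 and 0.09 ± 0.07, and those of the third ATG13 probe set 0.05 ± 0.08 and -0.06 ± 0.08.

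For ATG12, 204833_at changed by -0.26 ± 0.07 and -0.28 ± 0.07, and 213930_at rose by 0.47 ± 0.10 and 0.61 ± 0.10. For ATG5, 202512_s_at rose by 0.32 ± 0.08 and 0.26 ± 0.08, and 210639_s_at had -0.18 ± 0.07 and -0.20 ± 0.07, of which the second passed. WIPI2 rose more on 226986_at, by 1.29 ± 0.08 and 1.01 ± 0.08, than on the chosen probe set. WIPI1 rose by 1.88 ± 0.10 and 1.29 ± 0.10 on its second probe set, and ATG16L1 and BNIP3 fell on both of theirs. For SQSTM1, NBR1 and CALCOCO2 the chosen probe set rose most. SQSTM1 was called higher on 2 of 5 in vector cells and 4 of 5 with pre-miR-371, with lowest changes of -0.005 and -0.05. NBR1 was called higher on 3 and 4 of 4 (lowest 0.09 and 0.31), and CALCOCO2 on 2 of 4 in each line (lowest -0.05 and 0.09). Of the 28 members with several probe sets, 9 had all of them called in the same direction in each line, and 1 in vector cells and 2 with pre-miR-371 had calls in both directions. Which transcripts the probe sets detect was not tested.

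**Figure D3:**
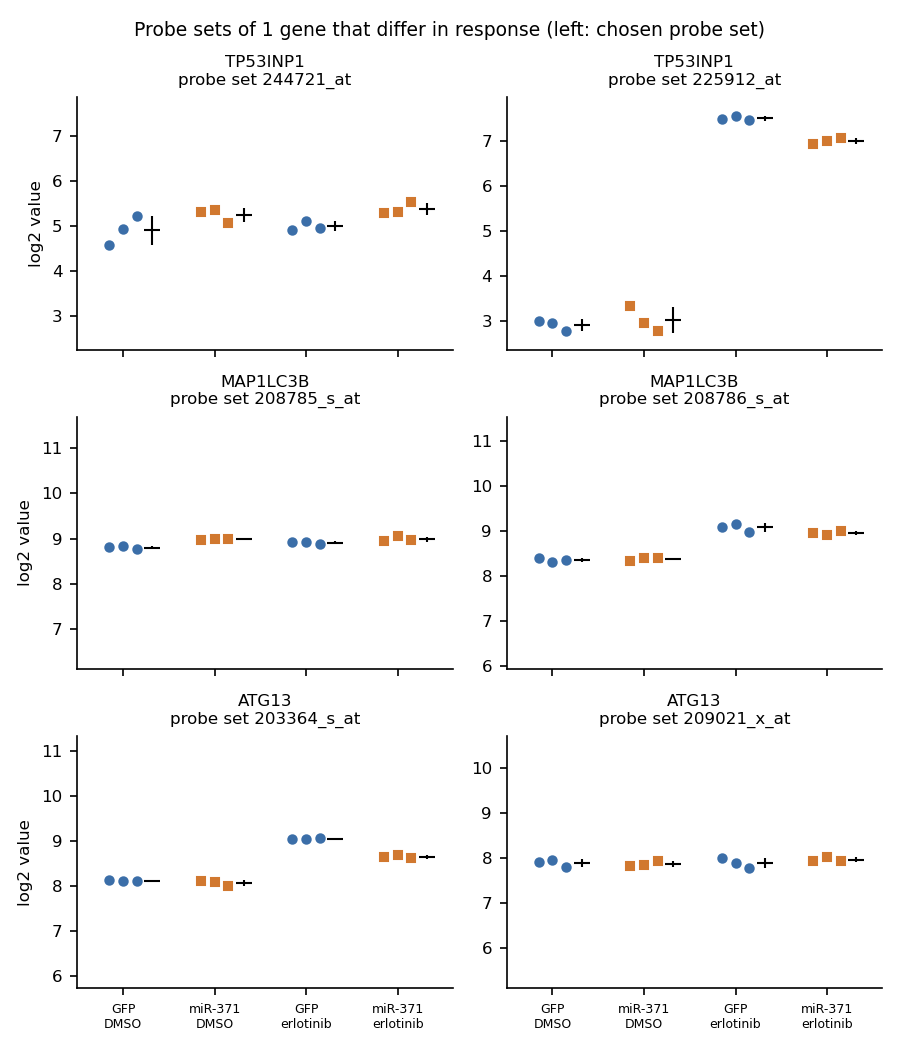
Log2 values on each array for a pair of probe sets of TP53INP1, MAP1LC3B and ATG13, with the chosen probe set on the left and the mean and SD of each group of 3 as a cross; the panels span equal log2 ranges. Of each pair, 225912_at, 208786_s_at and 203364_s_at rise with erlotinib in both lines and the other probe set does not.

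Response sizes were next set side by side between the lines, whose erlotinib comparisons share the variance estimate but no arrays. Of the 25 members that rose in both lines, 24 had the smaller rise in the pre-miR-371 line (96%), ATG10 being the exception. Of all 4437 genes that rose in both lines, 68% had the smaller rise there. Of the 8 members that fell in both, 6 had the smaller fall in pre-miR-371 cells (75%), against 74.3% of 3794 genes. A smaller response in that line was therefore common across the array, and the share among rising members stood above it, a gap that was not tested. All members were read on the same arrays, so they are not replicates of this comparison. With other processing of the values the share among rising members was 84.6% to 96.3%, and with single arrays left out 87.5% to 100%, beside 64.2% to 73.8% of all genes.

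When the difference of the responses was tested gene by gene, ATG13 alone passed, where 2.00% of all genes did (1.44% higher and 0.561% lower). Its rise was smaller in the pre-miR-371 line by a log2 difference of -0.34 ± 0.07 (adjusted p = 0.0353). The call rests on 1 of its 3 probe sets, since the others had differences of responses of 0.09 ± 0.11 and -0.11 ± 0.12. It did not hold when the chosen probe set was fitted and adjusted among all probe sets (limma, adjusted p = 0.0834). Nor did it hold when any of 11 of the 12 arrays was left out. TP53INP2 had the largest difference in size, -0.63 ± 0.20 (adjusted p = 0.153), followed by OPTN at -0.44 ± 0.11 (adjusted p = 0.0732) and GABARAPL1 at -0.38 ± 0.20 (adjusted p = 0.398), none of which passed. For OPTN and GABARAPL1 this too was seen on 1 of 2 probe sets. On 202073_at OPTN rose by 1.63 ± 0.12 in each line, a difference of 0.00 ± 0.16, and on 208869_s_at GABARAPL1 had a difference of 0.02 ± 0.17. In all, 30 of the 41 differences lay below 0, with a median of -0.09 against -0.01 for all genes.

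The second question was whether the members differed between the lines at the same treatment. These comparisons use the arrays already described, so they are not independent of the responses. The shares of all genes given for them include poorly expressed genes, and the shares among well expressed genes were not counted. In DMSO, 1 member was higher and 3 were lower in pre-miR-371 cells, where 5.25% of all genes passed (1.62% higher and 3.64% lower). WIPI1 was higher by 0.37 ± 0.09 (adjusted p = 0.0464). ATG16L1 was lower, with a log2 difference of -0.47 ± 0.10 (adjusted p = 0.0211), as were ATG10 at -0.43 ± 0.09 (adjusted p = 0.0253) and ATG4D at -0.29 ± 0.07 (adjusted p = 0.0444). The last 3 are conjugation enzymes. For each of the 4 genes the lines' arrays lay apart, but so they did for 10 members higher and 9 lower in all, called or not. The share of all genes with arrays apart in DMSO was not counted. All 4 calls were lost when pre-miR-371 DMSO replicate 1, 2 or 3 was left out.

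Under erlotinib, 1 member was higher and 4 were lower in pre-miR-371 cells, where 16.0% of all genes passed (6.50% higher and 9.46% lower). BNIP3 was higher by 0.25 ± 0.06 (adjusted p = 0.0134). Lower were ATG13 at -0.40 ± 0.05 (adjusted p = 0.000577), ATG10 at -0.38 ± 0.09 (adjusted p = 0.0176), PIK3C3 at -0.26 ± 0.07 (adjusted p = 0.0335) and SQSTM1 at -0.20 ± 0.05 (adjusted p = 0.0218). The ATG13 call rests on 203364_s_at alone. Its other probe sets had group means of 7.97 with pre-miR-371 against 7.91 in vector cells, and 6.12 against 6.07. The members' share of calls was 12.2%, below the background. Left were 2 calls without GFP vector erlotinib replicate 1 or pre-miR-371 erlotinib replicate 3, and 0 when all probe sets of a gene were averaged. The arrays lay apart with the pre-miR-371 line lower for 19 members (background 21.2%) and higher for 4 (background 14.9%), and the median difference of the members was -0.11, against -0.01 for all genes.

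Averaged over both treatments, 4 members were higher and 8 lower in pre-miR-371 cells, where 21.1% of all genes passed (8.03% higher and 13.1% lower). Those higher were WIPI1, MAP1LC3B, BNIP3 and TP53INP1, and those lower ATG13, ATG101, UVRAG, ATG4D, ATG7, ATG10, ATG16L1 and SQSTM1. The differences were small, from -0.41 ± 0.07 for ATG10 (adjusted p = 0.00181) to 0.36 ± 0.10 for TP53INP1 (adjusted p = 0.0259), whose probe set 225912_at had -0.19 ± 0.08. On their other probe sets, WIPI1 had -0.03 ± 0.07 and MAP1LC3B -0.05 ± 0.05. When all probe sets of a gene were averaged, the calls of ATG13, WIPI1, ATG7, MAP1LC3B, SQSTM1 and TP53INP1 were lost. By the same rule RB1CC1, ATG12, GABARAPL1 and NBR1 were gained. On the chosen probe set ATG10 was lower in pre-miR-371 cells in DMSO, in erlotinib and on average. Under erlotinib its other probe sets had group means of 6.80 with pre-miR-371 against 6.96 in vector cells, 5.06 against 5.17, and 4.44 against 4.17. With the mean of all probe sets the ATG10 call in erlotinib was lost, while that on average was kept. Without pre-miR-371 DMSO replicate 2 the number of calls was 6. No member was called with a fold above 1.5 in these comparisons of the lines. Of all genes, 0.217% were higher and 0.233% lower by that rule in DMSO, 0.688% and 0.551% in erlotinib and 0.212% and 0.192% on average.

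**Figure D4:**
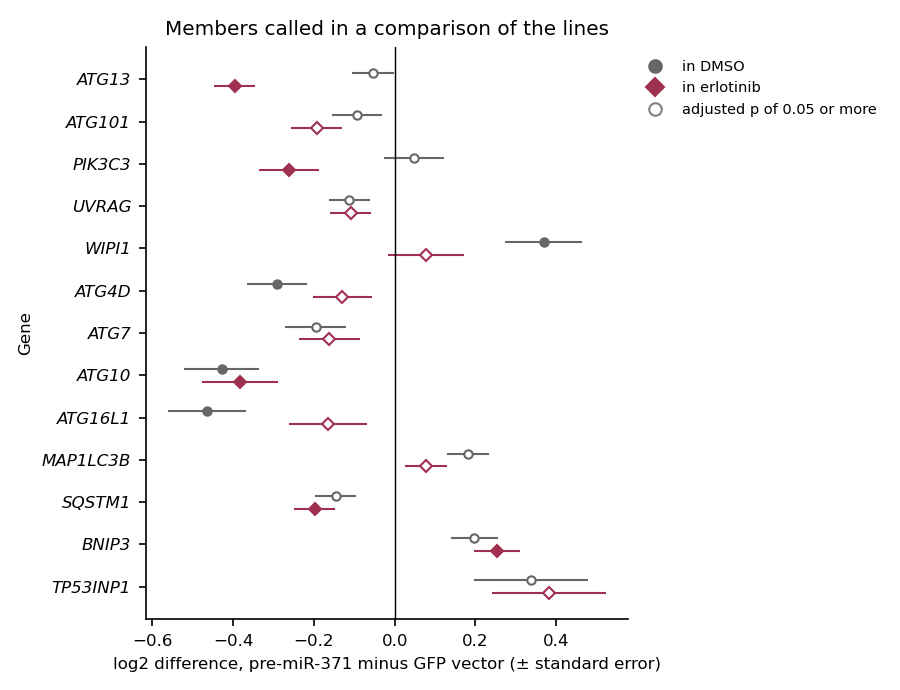
Log2 difference between the lines, pre-miR-371 minus GFP vector, with its standard error, for the 13 members that passed the test in DMSO, in erlotinib, on average or in the difference of responses; grey circles are DMSO and red diamonds erlotinib, and open symbols mark an adjusted p of 0.05 or more. The differences lie between -0.47 and 0.38, and ATG10 is below 0 with filled symbols in both.

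Genes that work before, beside or after the listed members were read from further lists. Their counts stand beside 26.5% of all genes that rose and 23.4% that fell in the GFP vector line and 24.8% and 22.2% in the pre-miR-371 line, or, among well expressed genes, 38.4% and 39.9%, and 37.7% and 37.0%. Among 14 other genes of autophagosome formation, 8 rose (57.1%) and 2 fell (14.3%) in each line (medians 0.21 and 0.19). ZFYVE1, also called DFCP1 and a marker of the site where autophagosomes form, rose by 1.77 ± 0.09 and 1.56 ± 0.09, TMEM41B, a partner of VMP1, by 0.74 ± 0.06 and 0.73 ± 0.06 and WDR45, a relative of WIPI1, by 0.86 ± 0.08 and 0.56 ± 0.08. RUBCN, an inhibitor of the UVRAG complex, changed by -0.59 ± 0.06 and -0.43 ± 0.06.

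Of 14 genes of autophagosome fusion with the lysosome, 9 rose (64.3%) and 3 fell (21.4%) in each line (medians 0.35 and 0.29). Examples are VPS41, a subunit of the HOPS tethering complex, at 0.88 ± 0.06 and 0.75 ± 0.06, VAMP8, a SNARE of the fusion step, at 0.85 ± 0.06 and 0.74 ± 0.06, TECPR1 at 0.92 ± 0.07 and 0.83 ± 0.07 and PLEKHM1, which binds HOPS and ATG8 proteins, at 0.81 ± 0.06 and 0.64 ± 0.06. Of 14 other selective autophagy receptors and their helpers, 11 rose (78.6%) and 1 fell (7.14%) in each line (medians 0.39 and 0.41). RETREG1 and RTN3, receptors for the endoplasmic reticulum, rose by 1.92 ± 0.12 and 2.09 ± 0.12 and by 1.09 ± 0.06 and 1.17 ± 0.06, CALCOCO1 by 1.51 ± 0.08 and 1.13 ± 0.08 and PINK1, the kinase that marks damaged mitochondria, by 1.38 ± 0.08 and 0.99 ± 0.08.

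The 30 measured genes of mTORC1 and nutrient signals did not move 1 way: 15 rose (50%) and 8 fell (26.7%) in the GFP vector line, and 14 rose (46.7%) and 7 fell (23.3%) in the pre-miR-371 line (medians 0.16 and 0.14). The shares that fell were near those of all genes, 23.4% and 22.2%, and below those of well expressed genes, 39.9% and 37.0%. The inhibitors DDIT4 and TSC1 rose, by 1.06 ± 0.06 and 1.04 ± 0.06 and by 0.80 ± 0.07 and 0.65 ± 0.07, as did RRAGB, a GTPase that recruits mTORC1 to the lysosome, by 1.46 ± 0.12 and 1.23 ± 0.12, and FNIP1, a partner of folliculin, by 0.76 ± 0.07 and 0.72 ± 0.07. Of 8 MiT/TFE and FOXO factors, 4 rose (50%) and 1 fell (12.5%) in vector cells and 4 rose and 2 fell (25%) with pre-miR-371 (medians 0.20 and 0.28). FOXO1 rose by 1.42 ± 0.10 and 1.12 ± 0.10, FOXO4 by 0.86 ± 0.13 and 1.11 ± 0.13 and FOXO3 by 0.38 ± 0.07 and 0.45 ± 0.07. MITF changed by -1.43 ± 0.08 and -1.09 ± 0.08.

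**Figure D5:**
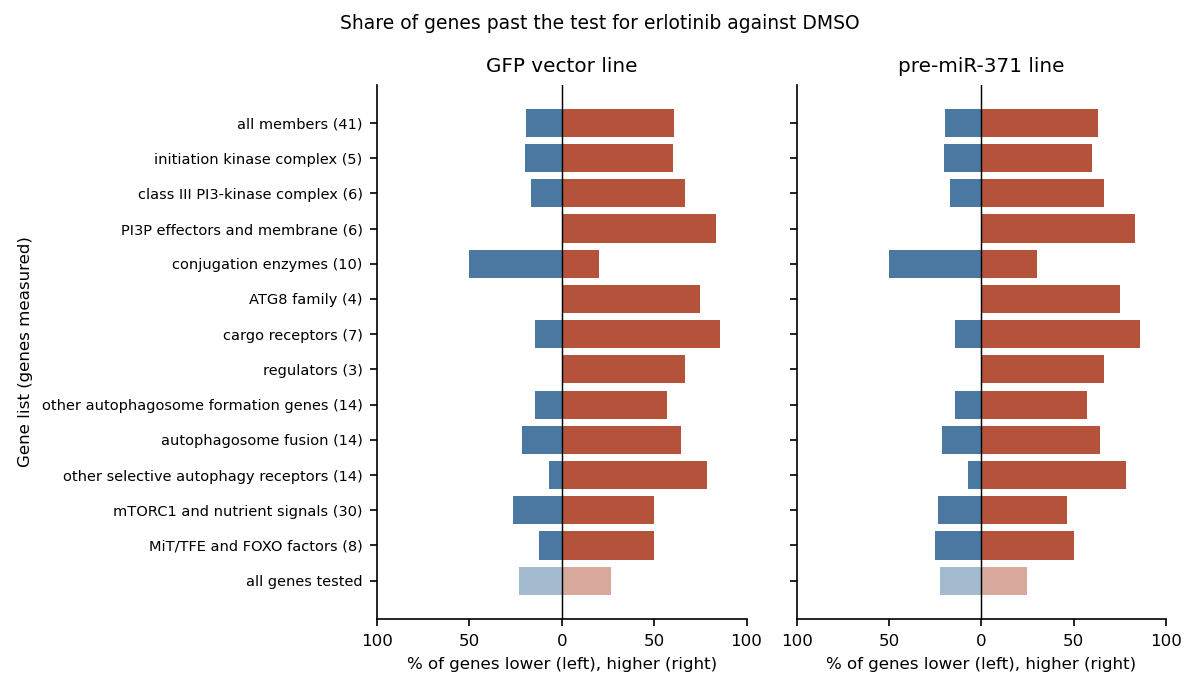
Share of genes that rose (right of 0) or fell (left of 0) with erlotinib at an adjusted p under 0.05 in each line, for all members, each role and the further lists, with the number of genes measured in brackets and all genes tested in pale bars at the bottom. All members reach 61.0% higher and 19.5% lower in the GFP vector line, and conjugation enzymes are the only group with more genes lower than higher.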

How the data were processed

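RNA of the 12 samples was hybridised to Affymetrix HG-U133 Plus 2.0 arrays. The deposited values are log2 expression values per probe set, normalized by the authors: quantile normalization is stated in the study's methods. RMA and affy are named in the processing notes of the submitters, with versions not given in the sources used here. Because the level of a probe set also depends on its probes, levels of different probe sets served to choose 1 per gene and to filter low values, and no difference in abundance was read from them.

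Of 54675 probe sets, 41097 had 1 gene symbol in the platform annotation, 1801 had several and 11777 had none. Symbols were updated through Entrez identifiers in a RefSeq table (GRCh38.p14), and the probe set with the highest mean was kept for each of 19775 genes. The log2 values were fitted with limma 3.58.1 (lmFit and eBayes, R 4.3.3) with 1 mean per group over all 12 arrays, and p-values were adjusted by Benjamini-Hochberg over all genes. A gene was called at an adjusted p under 0.05, and the study's fold limit of 1.5 was applied as a second rule. Values after ± are standard errors of limma's log2 fold changes, and values on single probe sets were adjusted over all probe sets.

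Groups came from the labels. The members and gene lists were chosen with earlier results of these data known. Array values are given for up to 3 members of each role with the largest mean response and for members called between the lines, and other lists are shown by the up to 4 genes with the smallest p. RefSeq windows were not at hand for RB1CC1, UVRAG, ATG4D, BNIP3L, TP53INP1 and DEPTOR, and LAMTOR1 was not matched to a probe set. Scripts were tested on simulated data. Alternatives changed the probe set rule, the low-value filter, the groups fitted, the block, the scaling, the variance model, the array weights, the test, the threshold and each array in turn. In the alternative with every probe set tested, the chosen probe set was still the one read, adjusted over all probe sets. The count of members with a smaller response in the pre-miR-371 line was followed through them as a choice made after seeing the data. The number of arrays limits the precision: an exact permutation test of 3 against 3 arrays cannot go below p = 0.1. Figures were drawn with matplotlib 3.10.9 (Python 3.11.15).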

Additional observations from a re-analysis of the deposited data

Results flagged for a closer look

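The response to erlotinib differed between the lines, by the test of the difference itself (limma, adjusted over all genes), for 1 of the 41 members and 1 of the 30 measured genes of mTORC1 and nutrient signals, where 2.00% of all genes passed. A count this near the background is not a result about these lists. ATG13 rose by 0.93 in the GFP vector line and by 0.58 in the pre-miR-371 line on the log2 scale, a difference of -0.34 ± 0.07 (adjusted p = 0.0353). SESN1, a p53 target that restrains mTORC1 and belongs to the list of mTORC1 and nutrient signals, rose by 0.84 and 0.38, a difference of -0.46 ± 0.10 (adjusted p = 0.0354).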

How the results depend on the processing

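Of the 33 member calls for erlotinib in the GFP vector line, 32 were kept under all alternatives other than the thresholds, and of the 34 in the pre-miR-371 line 29 were kept. Those lost under at least 1 alternative were PIK3R4 in the former and BECN1, PIK3R4, ATG9A, ATG4A and DEPTOR in the latter. For the lines in DMSO 0 of 4 calls were kept throughout, in erlotinib 0 of 5, averaged 3 of 12 and for the difference of responses 0 of 1. No call reversed. With the mean of all probe sets, MAP1LC3B (0.42 and 0.29) and TP53INP1 (1.58 and 1.37) were also called higher in both lines. The ATG13 difference of responses was lost in 14 of 20 alternatives, 11 of them an array left out, with an adjusted p of up to 0.499. The causes were not tested.

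With a fold above 1.5 also required, 4 members were lower in the GFP vector line, and 15 were higher and 2 lower in pre-miR-371 cells. With a fold above 2, 10 were higher and 2 lower in the GFP vector line, and 8 higher and 2 lower in pre-miR-371 cells. Conjugation enzymes called lower numbered 3 (fold above 1.5) and 1 (fold above 2) in GFP vector cells and 1 under either limit in pre-miR-371 cells. At a fold above 2, 1 initiation gene was higher in each line, and 3 and 2 cargo receptors were higher. The share of all genes past a fold above 2 was not counted, so these counts have no background to be read against.

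Between the lines in DMSO (4 calls), the count was 2 with every probe set tested, 9 among genes with a mean of at least 6, 0 with only the groups compared, 8 with quantile normalization repeated, 10 with a trend and robust variance, 13 with array weights, 0 by the methods' t-test, 0 at an adjusted p under 0.01 and 0 with either fold limit. In erlotinib (5 calls) it was 0 with the mean of all probe sets, 9 among genes with a mean of at least 6, 3 with arrays centred on their medians, 11 with a trend and robust variance, 3 by the methods' t-test, 1 at an adjusted p under 0.01 and 0 with either fold limit. Averaged over treatments (12 calls) it was 5 at an adjusted p under 0.01 and 0 with either fold limit. The difference of responses (1 call) gave 0 with the mean of all probe sets, with every probe set tested, with centred arrays, at an adjusted p under 0.01 and with either fold limit, 2 among genes with a mean of at least 6, 2 with quantile normalization repeated, 4 with a trend and robust variance and 5 with array weights. The share of all genes called under each alternative was not counted, so whether these counts exceed the background cannot be read from them.

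With the replicate block the counts were 26 higher and 8 lower in GFP vector cells, 25 and 8 with pre-miR-371, 2 between the lines in DMSO, 8 in erlotinib, 11 averaged and 1 for the difference of responses. The share of all genes called with the block was not counted either. Deviations of same-numbered samples correlated at -0.06 to 0.20 (median 0.03, 18 pairs), so the numbers were not taken to pair the samples, although 10 of 12 arrays correlated best with their own number, a hint from the data and not the design.

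With each array left out in turn, 24 to 26 members were higher and 8 to 8 lower in the GFP vector line, and 22 to 26 higher and 8 to 8 lower in pre-miR-371 cells. Calls between the lines ranged from 0 to 3 in DMSO, 2 to 7 in erlotinib and 6 to 10 averaged, and those for the difference from 0 to 3. The share of all genes called with an array left out was not counted, so these counts of calls have no background. Counts for initiation (3), conjugation (5) and cargo receptors (6) did not move, and 21 to 25 members had the smaller response in the pre-miR-371 line.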
